A study of Mus musculus with 12 samples.

Results

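The genes described here are 44 genes that make, activate, take up, store or burn fatty acids. They were picked by symbol as genes of these pathways, in a list drawn up with earlier results of these data known, from the 47642 genes listed for kidney tubule cells, and all 44 were found. By role they were 12 genes of synthesis, 4 of activation, 4 of uptake, binding and sensing, 8 of storage and 16 of oxidation, and synthesis and oxidation were kept apart throughout. RNA was sequenced from mIMCD3 cells, an immortalized epithelial line from the inner medullary collecting duct of mouse kidney whose growth is kept up by a viral transgene in every group. The wild-type (Wt) cells were compared with 1 Pkd1-/- clone and 1 Pkd2-/- clone, in 4 libraries of each, which came from separate dishes of the same line grown past confluency in medium with fetal bovine serum.

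The Pkd1-/- cells carry CRISPR deletions of 44909 and 44798 bases on chromosome 17 on their alleles, and the Pkd2-/- cells carry a TALEN deletion of 12598 bases on chromosome 5. Loss of Pkd1 or Pkd2, which encode the polycystins, causes autosomal dominant polycystic kidney disease, and the comparison asks what each loss does to transcription in tubule cells. Because each mutant line is a single clone, the replicates measure the spread between dishes, and the effect of the deleted gene cannot be told apart from other differences between the clones. In bulk RNA, fewer cells of a type and less RNA per cell cannot be told apart either.

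The libraries summed to between 25966273 and 28027792 normalized counts, which are reads per gene after division by a size factor for each library. Pkd1 itself was at 782 ± 112 normalized counts in Wt, 41.8 ± 8.81 in Pkd1-/- and 1209 ± 202 in Pkd2-/- cells (mean ± SD, n = 4, as for all such values here). The deletions take out 89.8% or 90.4% of its exon bases. Pkd2 was at 3971 ± 451, 2711 ± 133 and 3986 ± 124, and since its deletion holds only 14.7% of its exon bases, the gene's total does not check that genotype. Of the 15 collecting duct markers, 10 averaged 10 or more and summed to between 75197 and 86019 with the rest, and Pax8, Epcam and Krt8 were at 3787 or more in every library. Gata3 of that list was at 176 to 248 in Wt, 42 to 56 in Pkd1-/- and 294 to 430 in Pkd2-/- libraries. Aqp3, Avpr2 and Elf5 were at 12 or less, and the water channels Aqp2 and Aqp4, which define principal cells, were at 0 in all of them. The 7 adipocyte markers summed to at most 7 normalized counts in any library, with Cidec at 0 throughout. Of the 6 intercalated cell markers Atp6v1b1 was at 29 to 76 in Wt, 437 to 544 in Pkd1-/- and 0 to 2 in Pkd2-/- libraries, the others stayed at 6 or less, and Foxi1 was at 0 throughout. Of the proximal tubule markers, Lrp2 was at 474 to 555 in Wt, 25 to 63 in Pkd1-/- and 738 to 1217 in Pkd2-/- libraries, Aqp1 at 204 to 245, 540 to 619 and 259 to 277, and Slc34a1, Slc5a12, Slc22a6 and Kap at 0 throughout. The macrophage list rested on Csf1r and Cd14, summed to 1055 to 1748 and had Adgre1, Itgam and Cd163 at 0, and the fibroblast list summed to 15 to 99. The part of these marker differences in the results below was not tested.

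Fatty acid synthesis starts in the cytosol, where ATP citrate lyase (Acly) makes acetyl-CoA, acetyl-CoA carboxylase (Acaca, Acacb) makes malonyl-CoA from it and fatty acid synthase (Fasn) builds palmitate, which elongases and desaturases then lengthen and unsaturate. Acyl-CoA synthetases (Acsl genes) couple fatty acids to coenzyme A, after which they are either esterified into triglyceride for lipid droplets or passed through the carnitine shuttle into mitochondria and shortened by beta-oxidation. Cells of the kidney tubule are known for relying on fatty acid oxidation, most of all in the proximal segments, and altered lipid metabolism has been described in polycystic kidney disease.

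The start regions of Acsl1, Ffar4 and Cpt1c, which held large changes below, and of a pair that shares 1 start region, are shown first. They are a description, and no value or call below uses these letters. RefSeq windows on GRCm38.p6 were at hand for 36 of the 44 genes, and Scd1, Scd2, Fads1, Fabp5, Dgat1, Dgat2, Acaa2 and Ppargc1b had none. Each line gives the bases before the start site that lie outside annotated exons, 5′ to 3′ in the direction of transcription, with CCAAT boxes (CCAAT, either strand) and GC boxes (GGGCGG, either strand) in capitals. Acsl1 lies on the plus strand at chr8:46470787-46471036, Ffar4 on the plus strand at chr19:38096829-38097070 and Cpt1c on the minus strand at chr7:44974852-44975101. Hadha and Hadhb, which encode the subunits of the mitochondrial trifunctional protein, are transcribed away from each other, with start sites 273 bases apart, and the 85 bases between their annotated exons at chr5:30155163-30155247 are given in the direction of Hadhb.
Acsl1: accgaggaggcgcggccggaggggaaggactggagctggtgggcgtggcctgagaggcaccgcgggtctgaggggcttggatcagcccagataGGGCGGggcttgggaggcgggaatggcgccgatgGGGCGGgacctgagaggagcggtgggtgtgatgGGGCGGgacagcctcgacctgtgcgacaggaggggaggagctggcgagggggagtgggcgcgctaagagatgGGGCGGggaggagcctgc
Ffar4: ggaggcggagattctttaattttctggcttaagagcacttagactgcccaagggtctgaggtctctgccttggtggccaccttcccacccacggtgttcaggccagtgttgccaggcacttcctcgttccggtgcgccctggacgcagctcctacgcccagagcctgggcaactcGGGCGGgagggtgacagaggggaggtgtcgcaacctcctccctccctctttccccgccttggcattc
Cpt1c: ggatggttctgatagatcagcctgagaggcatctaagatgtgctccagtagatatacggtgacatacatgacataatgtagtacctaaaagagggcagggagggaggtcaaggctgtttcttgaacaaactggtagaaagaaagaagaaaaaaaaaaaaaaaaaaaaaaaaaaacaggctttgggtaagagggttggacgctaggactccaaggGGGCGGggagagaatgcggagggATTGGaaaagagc
Hadhb: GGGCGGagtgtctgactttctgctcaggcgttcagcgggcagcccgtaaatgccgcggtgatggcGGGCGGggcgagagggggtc
The Acsl1 window held 4 GC boxes and no CCAAT box, that of Cpt1c 1 of each, and the stretch shared by Hadha and Hadhb 2 GC boxes. Over the 250 bases before the start, GC boxes were present in 26 of 41 windows of the members and in 32.7% of all 32851 windows, and CCAAT boxes in 16 of 41 and 33.8%. The sterol regulatory element letters TCACNCCAC were found in 2 member windows, one of Ehhadh and one at a second Acsl1 start, against 1.05% of all windows, and the direct repeat with a spacer of 1 base that PPAR receptors bind in 0 member windows against 0.0335% of all. These matches describe letters only.

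Of the 44 genes, 40 averaged at least 10 normalized counts over all libraries and 36 at least 100. Levels per kilobase of exon allow a rough comparison between genes, since the length takes in all annotated exons, whether or not these cells use them. On that scale Scd2 was the highest member in Wt cells at 4394, followed by Fads1 at 2642, Acaa2 at 2409, Acadl at 1798, Acly at 1538 and Fads2 at 1508. A desaturase thus led the list, and enzymes of synthesis and oxidation were mixed among the highest. Cd36, Fabp3, Mgll and Ehhadh were at the other end, with means under 10 and at most 5 normalized counts in any library. Fabp3, Mgll and Ehhadh fell below the minimum mean of 1 and were not tested, which left 41 members among the 18552 genes tested. Replicate libraries were close, with a median coefficient of variation of 4.84%, 4.27% and 5.40% over the members in Wt, Pkd1-/- and Pkd2-/-, against 7.45%, 6.60% and 7.95% over all genes that averaged at least 10.

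In Pkd1-/- against Wt cells, 21 of the 41 tested members passed an adjusted p of 0.05 (limma with Benjamini-Hochberg adjustment over all genes tested), 10 higher and 11 lower. The background was 27.1% of all genes tested, 13.6% higher and 13.5% lower, and 37.0% among genes averaging 100 or more, where most of the members lie. Of the members, 2 also reached a log2 fold change of 1, Ffar4 and Cpt1c, both lower, against a background of 6.24%, of which 2.96% higher and 3.28% lower, and of 2.84% among the abundant genes. The libraries of the compared genotypes did not overlap for 21 members, against 27.1% of all genes tested.

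In Pkd2-/- against Wt cells, 27 members passed, 10 higher and 17 lower. The background was 42.3%, with 20.0% higher and 22.3% lower, and 59.3% among the abundant genes. The fold threshold was reached by 5 members, Acsl1 and Ppargc1b higher and Scd1, Fabp5 and Ffar4 lower, against 9.62%, of which 3.24% higher and 6.38% lower, and 5.68% among the abundant genes. Libraries did not overlap for 27 members, against 37.2% of all genes tested. Both comparisons use the same Wt libraries.

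In Pkd2-/- against Pkd1-/- cells, 31 members passed, 14 higher and 17 lower, against a background of 46.3%, with 21.9% higher and 24.3% lower, and 63.2% among the abundant genes. The fold threshold was reached by 4 members, Acsl1 higher and Fabp5, Dgat2 and Cd36 lower, against 11.8%, of which 4.53% higher and 7.23% lower, and 6.97% among the abundant genes. Libraries did not overlap for 26 members, against 41.8%. The median log2 fold change of the tested members was -0.01, -0.12 and -0.08 in the 3 comparisons, and that of all genes tested 0.01, -0.01 and -0.01. Past the adjusted p alone, the share of members was somewhat above that of the abundant genes in all 3 comparisons, with mostly small changes. For the fold threshold the abundant genes are an unlike background. Of the members past it, Ffar4, Fabp5, Ppargc1b and Cd36 averaged only 76.3, 62.7, 45.3 and 1.17 normalized counts.

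**Figure D1:**
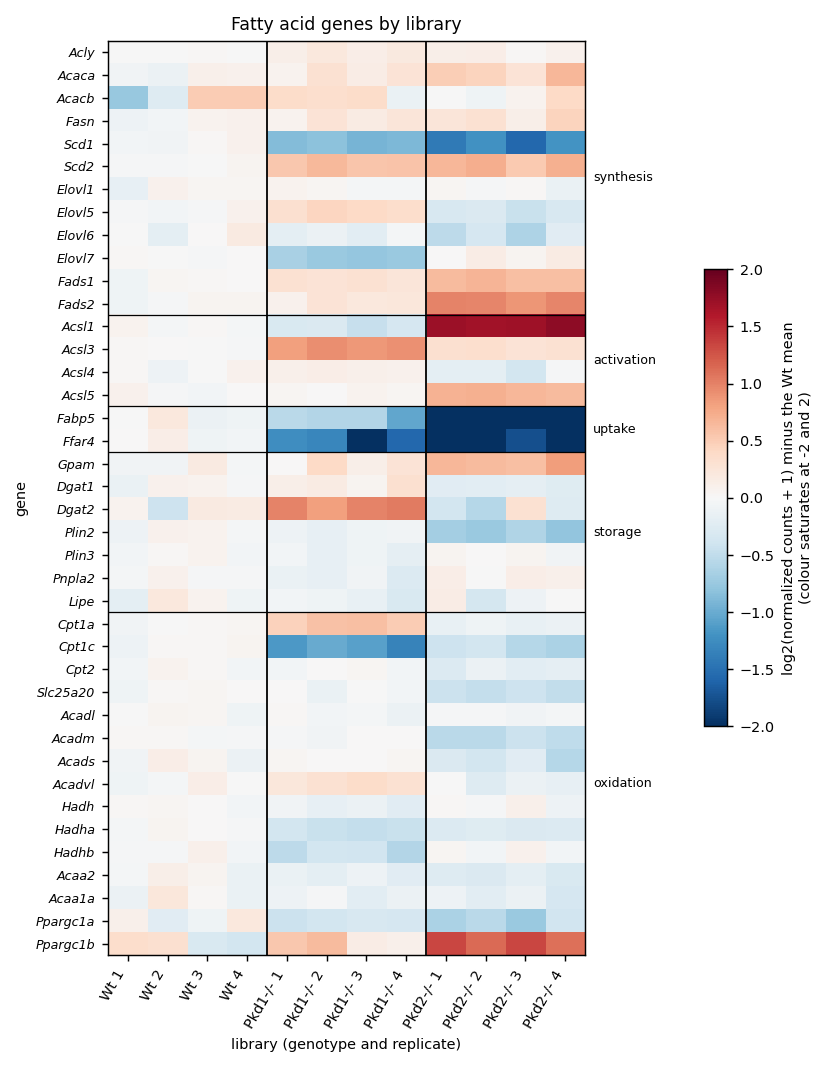
Heat map of the 40 members averaging 10 or more normalized counts (rows, grouped by role) in the 12 libraries (columns). Colour gives log2(normalized counts + 1) minus the mean of the 4 Wt libraries, red above and blue below, and saturates at -2 and 2. Libraries of a genotype look alike, with the strongest blue in Fabp5 and Ffar4 and the strongest red in Acsl1 of Pkd2-/- cells.

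The synthesis genes moved in both directions. Of 12 synthesis members 8 passed in Pkd1-/- cells, 6 higher and 2 lower, and 8 in Pkd2-/- cells, 5 higher and 3 lower. These are 66.7% of those tested in each line, beside 37.0% and 59.3% of all genes averaging 100 or more. Their median log2 fold change was 0.19 and 0.09. Under chromosome centring, a choice made after seeing the data that is described with the chromosomes, the calls became 3 higher and 2 lower in Pkd1-/- and 7 higher and 3 lower in Pkd2-/- cells.

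The 4 genes of de novo synthesis changed little. Acly was at 8059, 8090, 8230 and 8090 normalized counts in Wt, 8793, 9382, 8942 and 9338 in Pkd1-/- and 8783, 8858, 8260 and 8576 in Pkd2-/- libraries. All mutant values lay above all Wt values. The log2 fold change was 0.17 ± 0.04 (SE) in Pkd1-/- (adjusted p = 0.00409) and 0.09 ± 0.04 in Pkd2-/- cells (adjusted p = 0.099). Acaca, the cytosolic carboxylase that commits carbon to synthesis, was at 532, 515, 601 and 593 in Wt, 585, 694, 623 and 675 in Pkd1-/- and 787, 759, 676 and 886 in Pkd2-/- libraries. The Pkd2-/- values lay above the Wt values and the Pkd1-/- values overlapped them. Acaca rose by 0.47 ± 0.08 on the log2 scale in Pkd2-/- cells (adjusted p = 0.000147), with 0.20 ± 0.08 in Pkd1-/- cells (adjusted p = 0.0847). Fasn rose by 0.28 ± 0.06 in Pkd2-/- cells (adjusted p = 0.00172), with 0.18 ± 0.06 in Pkd1-/- cells (adjusted p = 0.0436), a call lost when any of 7 single libraries was left out. Acacb, the isozyme at the mitochondrial surface, was at 21 to 52 in Wt libraries and passed in neither line.

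Scd1 and Scd2, the stearoyl-CoA desaturases that make monounsaturated fatty acids, moved in opposite directions although they lie 87.6 kb apart (Scd2 at chr19:44293674-44306864, Scd1 at chr19:44394455-44407879). Scd1 was at 2152, 2125, 2271 and 2360 normalized counts in Wt, 1223, 1265, 1173 and 1190 in Pkd1-/- and 835, 959, 745 and 968 in Pkd2-/- libraries. The 3 genotypes did not overlap and stepped down from Wt to Pkd1-/- to Pkd2-/-. The log2 fold change was -0.88 ± 0.07 in Pkd1-/- (adjusted p = 2.3e-08) and -1.35 ± 0.07 in Pkd2-/- cells (adjusted p = 2.15e-11), and Pkd2-/- cells were below Pkd1-/- cells by -0.48 ± 0.07 (adjusted p = 2.04e-05). Scd2 was at 23661, 23495, 23911 and 24976 in Wt, 34745, 37518, 35095 and 35820 in Pkd1-/- and 38176, 39574, 34454 and 39345 in Pkd2-/- libraries. Every mutant library was above every Wt library, and the mutant lines overlapped. Scd2 rose by 0.58 ± 0.05 (adjusted p = 4.58e-08) and 0.66 ± 0.05 (adjusted p = 3.45e-09), and the difference between the mutants was 0.08 with a 95% interval from -0.02 to 0.18. Per kilobase, Scd1 made up 9.38% ± 0.215 of Scd1 and Scd2 together in Wt, 3.65% ± 0.0928 in Pkd1-/- and 2.51% ± 0.165 in Pkd2-/- cells. Scd1, Scd2, Scd3 and Scd4 are close paralogs, and how reads that fit several of them were counted is not given in the sources used here. Scd3 was at 19 to 42 in Wt and 54 to 89 in Pkd2-/- libraries, and Scd4 at 2 to 5 in Wt and 5 to 14 in Pkd1-/- libraries, both far below Scd1.

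Fads1 and Fads2, the desaturases of polyunsaturated fatty acid synthesis, lie 81.1 kb apart on the same chromosome and rose together. Fads2 was at 4674 to 5182 in Wt, 5286 to 5976 in Pkd1-/- and 9110 to 9826 in Pkd2-/- libraries, so that the 3 genotypes did not overlap. It rose by 0.20 ± 0.05 in Pkd1-/- (adjusted p = 0.00437) and by 0.95 ± 0.05 in Pkd2-/- cells (adjusted p = 1.33e-11). Fads1 rose by 0.28 ± 0.04 (adjusted p = 4.36e-05) and by 0.63 ± 0.04 (adjusted p = 5.57e-10). For both genes the Pkd2-/- cells exceeded the Pkd1-/- cells, by 0.75 for Fads2 (adjusted p = 2.99e-10) and 0.35 for Fads1 (adjusted p = 1.36e-06).

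The elongases differed between the mutant lines. Elovl5, which lengthens polyunsaturated chains, rose by 0.38 ± 0.05 in Pkd1-/- (adjusted p = 1.56e-05) and fell by 0.34 on the log2 scale in Pkd2-/- cells (adjusted p = 2.3e-05), so that Pkd2-/- cells were below Pkd1-/- cells by -0.72 ± 0.05 (adjusted p = 1.11e-09). Elovl7, an elongase of saturated very long chains, did the reverse in part. It fell by 0.73 on the log2 scale in Pkd1-/- cells (adjusted p = 5.93e-10) and was at 0.09 in Pkd2-/- cells (adjusted p = 0.112). Elovl6, which extends palmitate to stearate, fell by 0.43 in Pkd2-/- cells (adjusted p = 0.000292), with -0.15 in Pkd1-/- cells (adjusted p = 0.215). Elovl1 was at 0.00 and -0.02, with 95% intervals within -0.15 and 0.13. Per kilobase, the 4 elongases split into 45.1% Elovl7 and 20.6% Elovl5 in Wt, 31.4% and 30.8% in Pkd1-/-, and 51.1% and 17.2% in Pkd2-/- cells.

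**Figure D2:**
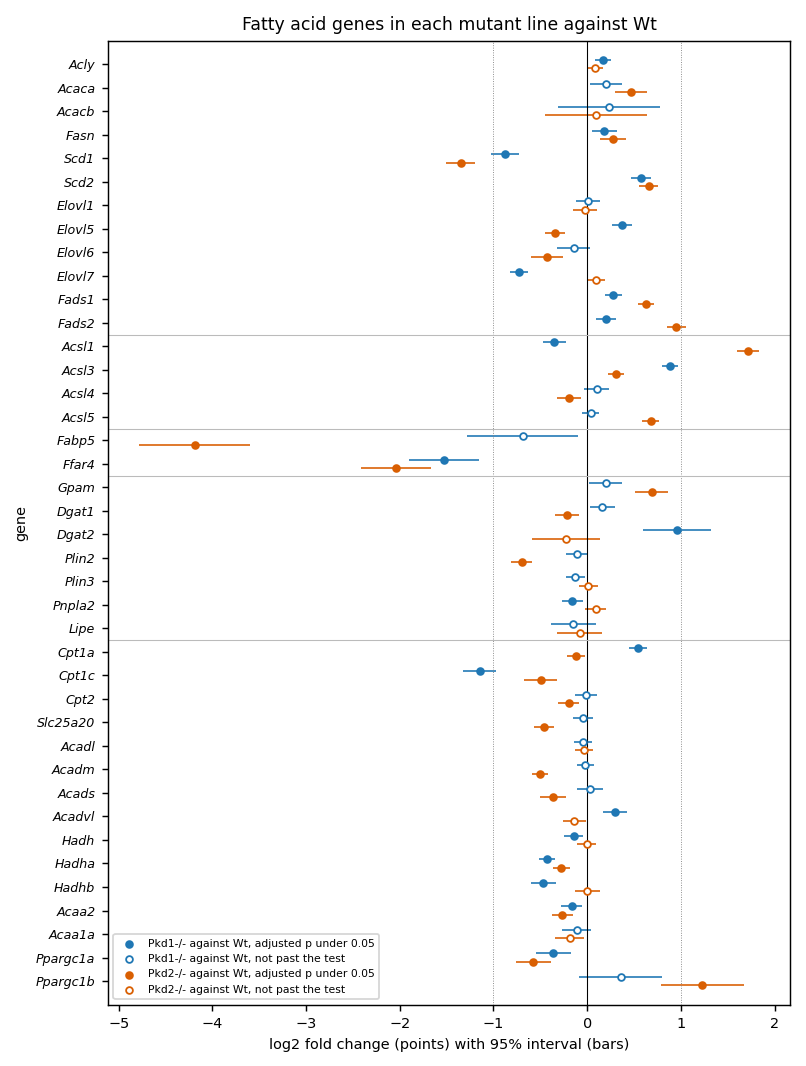
Log2 fold changes against Wt (points) with 95% intervals from limma (bars) for the 40 members averaging 10 or more, Pkd1-/- in blue and Pkd2-/- in orange, filled where the adjusted p was under 0.05. Dotted lines mark log2 fold changes of -1 and 1, and grey lines separate synthesis, activation, uptake, storage and oxidation from top to bottom. Most points lie between the dotted lines, and Fabp5 at -4.19 in Pkd2-/- cells is farthest from 0.

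Among the long-chain acyl-CoA synthetases, which activate fatty acids for every later use, a different isozyme rose most in each mutant line. Acsl1 (chr8:46471037-46536051), whose start region is printed above and whose product feeds both oxidation and triglyceride synthesis, was at 598, 555, 580 and 554 in Wt, 463, 465, 416 and 451 in Pkd1-/- and 1864, 1832, 1851 and 1980 in Pkd2-/- libraries. The Pkd1-/- libraries were below and the Pkd2-/- libraries above all Wt libraries. Acsl1 fell by 0.35 on the log2 scale in Pkd1-/- cells (adjusted p = 0.000124) and rose by 1.72 ± 0.06, or 3.29-fold, in Pkd2-/- cells (adjusted p = 2.96e-14). Between the mutants it differed by 2.07 ± 0.06 (adjusted p = 1.27e-15), the largest rise of any member.

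Acsl3, an isozyme found on the endoplasmic reticulum and lipid droplets, was at 2191 to 2244 in Wt, 3923 to 4249 in Pkd1-/- and 2679 to 2806 in Pkd2-/- libraries. The 3 genotypes did not overlap, with Pkd1-/- highest. It rose by 0.88 ± 0.04 (adjusted p = 9.39e-12) and 0.31 ± 0.04 (adjusted p = 6.46e-06), with -0.57 ± 0.04 between the mutants (adjusted p = 1.33e-09). Acsl5, found on mitochondria and endoplasmic reticulum, rose by 0.68 ± 0.04 in Pkd2-/- cells (adjusted p = 2.81e-10) and was at 0.04 in Pkd1-/- cells (adjusted p = 0.593). Acsl4, which prefers arachidonic acid, fell by 0.20 in Pkd2-/- cells (adjusted p = 0.0146, and 0.0612 without Pkd2-/- replicate 3), beside a median of -0.29 for its neighbours on the X chromosome. In the isozyme total per kilobase, Acsl1 remained a minor part at 3.39% in Wt, 2.07% in Pkd1-/- and 8.14% in Pkd2-/- cells. Acsl3 held 31.7%, 45.4% and 28.6% and Acsl5 41.4%, 33.0% and 48.3%. The Acsl1 share rests on 10483 annotated exon bases, against 4357 for Acsl3 and 4864 for Acsl5, and would be larger if its transcripts in these cells are shorter. The make-up of 5 isozyme families shows these shares beside each other.

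**Figure D3:**
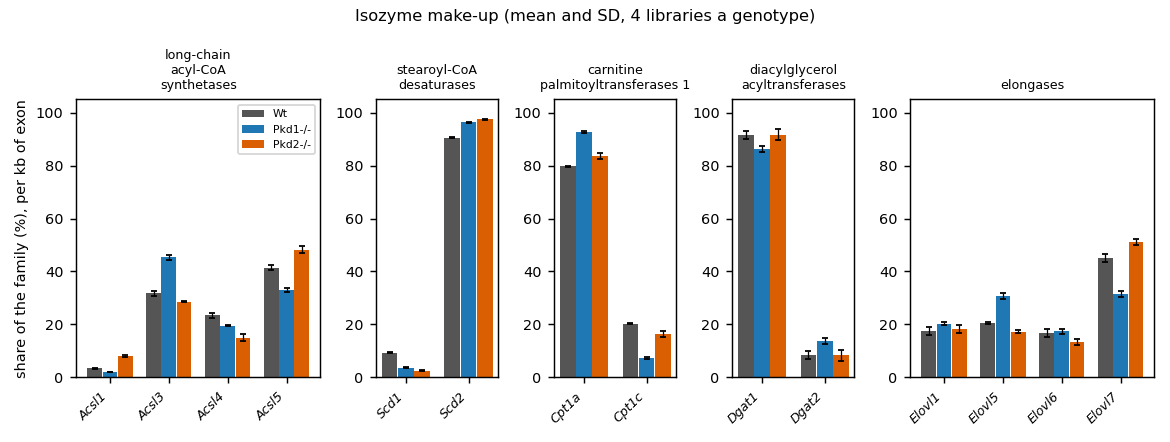
Bars give each isozyme's share (%) of its family's summed normalized counts per kilobase of exon, as mean with SD over 4 libraries of each genotype (Wt grey, Pkd1-/- blue, Pkd2-/- orange), in 5 families. Scd1 goes from 9.38% in Wt to 3.65% and 2.51% in the mutants, and Cpt1c from 20.3% to 7.32% and 16.4%.

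Among the genes of uptake, binding and sensing, Fabp5 and Ffar4 held the largest falls of any member against Wt. Fabp5 (chr3:10012548-10016607), a cytosolic fatty acid binding protein of epithelia, was at 111, 130, 103 and 106 in Wt, 77, 74, 74 and 54 in Pkd1-/- and 6, 6, 9 and 2 in Pkd2-/- libraries. The Pkd2-/- libraries were all in single digits, far below both other groups. Fabp5 fell by 4.19 on the log2 scale in Pkd2-/- against Wt cells (SE 0.28, adjusted p = 6.28e-10) and by 3.50 against Pkd1-/- cells (adjusted p = 6.28e-09). In Pkd1-/- cells its log2 fold change was -0.69 ± 0.28 (adjusted p = 0.0811), although no Pkd1-/- library overlapped a Wt library, and over the alternatives its adjusted p ran from 0.00217 with only Wt and Pkd1-/- libraries in the fit to 0.201 without Pkd1-/- replicate 4.

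Ffar4 (chr19:38097071-38114263), the cell surface receptor that senses long-chain fatty acids, was at 145, 158, 135 and 139 in Wt, 60, 58, 35 and 48 in Pkd1-/- and 30, 31, 42 and 35 in Pkd2-/- libraries. Both mutants were below every Wt library and overlapped each other. It fell by 1.53 on the log2 scale in Pkd1-/- (SE 0.18, adjusted p = 2.45e-06) and by 2.04 in Pkd2-/- cells (SE 0.18, adjusted p = 2.61e-08). Between the mutants the value was -0.51 ± 0.18 (adjusted p = 0.0251), a call lost without any of Pkd1-/- replicates 1 and 2 and Pkd2-/- replicates 1 and 2.

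Cd36, the fatty acid translocase, was at 0, 1, 1 and 0 in Wt, 3, 4, 0 and 5 in Pkd1-/- and 0 in all Pkd2-/- libraries. It passed in Pkd2-/- against Pkd1-/- cells (adjusted p = 0.0213), with overlapping groups at the limit of counting, where a count of 0 allows up to 3 counts, and the call was lost without any of Pkd1-/- replicates 1, 2 and 4 (highest adjusted p = 0.0774). Fabp3 was at 0 to 3. Neither can be compared further at this depth. Of the other transporters, binding proteins and synthetases, 9 of 21 could be tested, with 1 past the adjusted p in Pkd1-/- and 6 in Pkd2-/- cells, 2 higher and 4 lower. The one past both thresholds was Slc27a3, an acyl-CoA synthetase of the transport protein family, which was lower by -1.25 ± 0.25 in Pkd2-/- cells (adjusted p = 0.000476). Lipoprotein lipase (Lpl) was at 0 in all libraries but 1, where it was at 1.

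**Figure D4:**
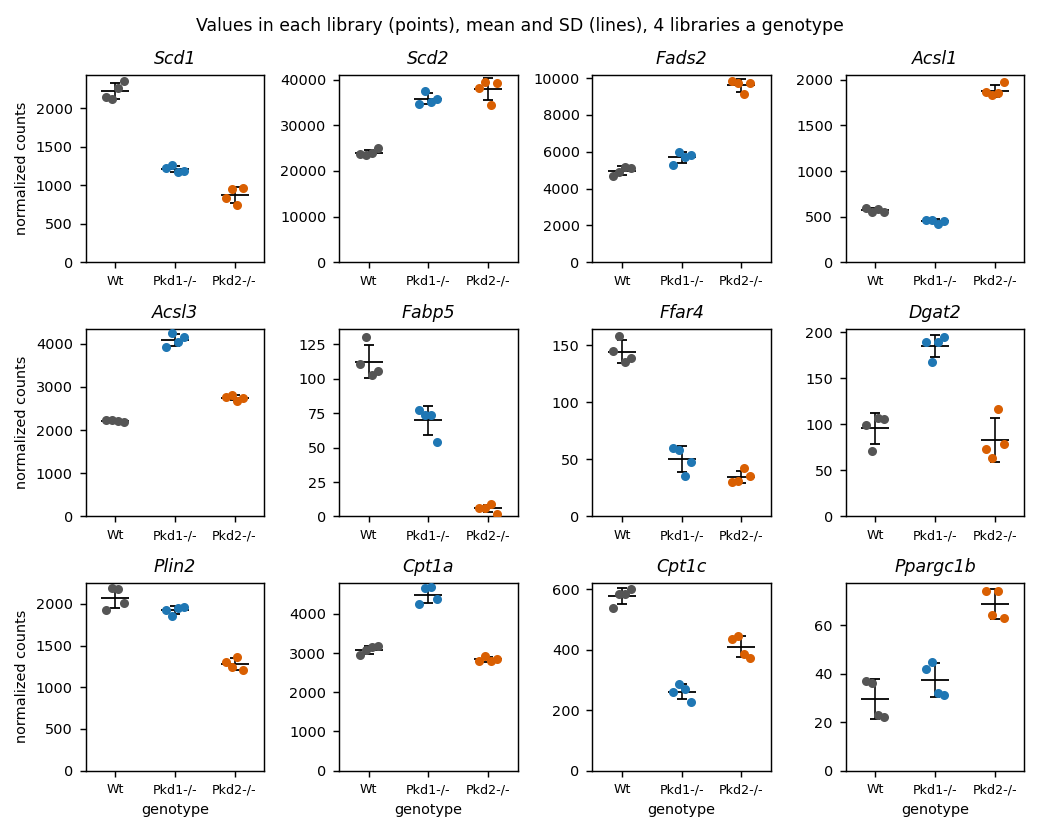
Normalized counts of 12 members in each library (points) with mean and SD (black lines), 4 libraries of each genotype, every axis from 0. Scd1 and Ffar4 are below Wt in both mutants, Scd2 above Wt in both, Acsl1 is at 1832 to 1980 in Pkd2-/- cells, and Fabp5 at 2 to 9 there.

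Storage genes passed at shares near or below the background. Of 7 tested, 2 passed in Pkd1-/- cells, 1 in each direction, and 3 in Pkd2-/- cells, 1 higher and 2 lower. These are 28.6% and 42.9% of those tested. The background was 27.1% and 42.3% of all genes tested, and 37.0% and 59.3% of genes averaging 100 or more. Dgat2 (chr7:99153658-99182719), which makes triglyceride from diacylglycerol, was at 99, 71, 107 and 106 in Wt, 189, 168, 189 and 195 in Pkd1-/- and 73, 63, 117 and 79 in Pkd2-/- libraries. The Pkd1-/- libraries stood above all others, and Wt and Pkd2-/- overlapped. It rose by 0.96 ± 0.17 in Pkd1-/- cells (adjusted p = 0.000281) and was at -0.22 ± 0.17 in Pkd2-/- cells (adjusted p = 0.328), which were below Pkd1-/- cells by -1.19 ± 0.17 (adjusted p = 1.24e-05). Dgat1, the other enzyme of that step, was the main isozyme at 91.6%, 86.4% and 91.7% of the pair per kilobase and fell by 0.22 in Pkd2-/- cells (adjusted p = 0.00975). Gpam, which starts glycerolipid synthesis at the mitochondrial surface, was at 634, 633, 757 and 652 in Wt, 671, 879, 723 and 807 in Pkd1-/- and 1059, 1037, 1015 and 1196 in Pkd2-/- libraries. Only the Pkd2-/- libraries stood clear of Wt, by 0.69 ± 0.08 (adjusted p = 2e-06).

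Plin2, a coat protein of lipid droplets whose level usually follows droplet content, was at 1930, 2191, 2174 and 2010 in Wt, 1929, 1860, 1953 and 1964 in Pkd1-/- and 1300, 1239, 1365 and 1203 in Pkd2-/- libraries. The Pkd2-/- libraries lay below all others. Plin2 fell by 0.70 on the log2 scale in Pkd2-/- cells (SE 0.05, adjusted p = 4.96e-09), with -0.11 in Pkd1-/- cells (adjusted p = 0.171). Plin3 was higher in level and passed in neither line against Wt. Pnpla2, the first lipase of droplet triglyceride, was at 1986, 2180, 2028 and 2016 in Wt, 1878, 1832, 1950 and 1691 in Pkd1-/- and 2256, 2051, 2242 and 2204 in Pkd2-/- libraries. The Pkd1-/- values lay below Wt by -0.16 ± 0.05 (adjusted p = 0.0319), a call lost when any of Wt replicates 2 and 3 and Pkd1-/- replicates 2 and 4 was left out. Lipe, the hormone-sensitive lipase, passed in neither line, and Mgll, which splits monoglyceride, was at 0 to 3.

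Among the oxidation genes that passed, most were lower, and the difference between the lines in that count was not tested. Of 15 tested, 8 passed in Pkd1-/- cells, 2 higher and 6 lower, and 10 in Pkd2-/- cells, 1 higher and 9 lower, with medians of -0.05 and -0.20. These are 53.3% and 66.7% of those tested, beside 37.0% and 59.3% of all genes averaging 100 or more. Under chromosome centring the calls were 3 higher and 3 lower in Pkd1-/- and 1 higher and 9 lower in Pkd2-/- cells. Centring takes out a single median for each chromosome, so it does not correct shifts of parts of chromosome 5 in Pkd1-/- cells. There Acads was called higher (0.19, adjusted p = 0.0469), but relative to its neighbours it was at -0.16. Hadha and Hadhb stayed lower at -0.27 and -0.30, with -0.10 and -0.13 relative to theirs. In Pkd2-/- cells all 4 genes of the carnitine shuttle passed as lower. Cpt1c (chr7:44959372-44974851), a Cpt1 relative known from neurons with little transferase activity, was at 539, 583, 583 and 600 in Wt, 259, 286, 270 and 227 in Pkd1-/- and 434, 444, 386 and 373 in Pkd2-/- libraries. The 3 genotypes did not overlap. It fell by 1.15 on the log2 scale in Pkd1-/- (SE 0.08, adjusted p = 5.17e-09) and by 0.50 in Pkd2-/- cells (SE 0.08, adjusted p = 9.11e-05), and the mutants differed by 0.65 ± 0.08 (adjusted p = 3.2e-06). Cpt1a, the rate-limiting transferase of mitochondrial import, was at 2946 to 3182 in Wt, 4266 to 4681 in Pkd1-/- and 2789 to 2922 in Pkd2-/- libraries. It rose by 0.54 ± 0.05 in Pkd1-/- cells (adjusted p = 2.84e-08). In Pkd2-/- cells it was lower by -0.12 ± 0.05 (adjusted p = 0.0392), a call lost when any of 6 libraries was left out (highest adjusted p = 0.0985). The carnitine carrier Slc25a20 fell by 0.46 in Pkd2-/- cells (adjusted p = 6.86e-07) and Cpt2, the inner membrane transferase, by 0.20 (adjusted p = 0.00647), while both passed in neither direction in Pkd1-/- cells.

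Of the 8 enzymes of mitochondrial beta-oxidation, 5 passed in Pkd1-/- cells, 1 higher and 4 lower, and 4 in Pkd2-/- cells, all lower. These are 62.5% and 50% of those tested, beside 37.0% and 59.3% of all genes averaging 100 or more. Acadm, the medium-chain acyl-CoA dehydrogenase, was at 4961, 4984, 4760 and 4811 in Wt, 4775, 4665, 4907 and 4915 in Pkd1-/- and 3344, 3374, 3638 and 3414 in Pkd2-/- libraries. Wt and Pkd1-/- overlapped and Pkd2-/- lay below both. It fell by 0.50 on the log2 scale in Pkd2-/- cells (SE 0.04, adjusted p = 1.42e-08). Acads, the short-chain enzyme, fell by 0.37 in Pkd2-/- cells (adjusted p = 0.000181). Acadvl, the very-long-chain enzyme, rose by 0.30 ± 0.06 in Pkd1-/- cells (adjusted p = 0.00083), with -0.14 in Pkd2-/- cells (adjusted p = 0.0762), so that the 4 acyl-CoA dehydrogenases did not move as a set. Acadl passed in neither. Acaa2, the thiolase that ends a turn of the cycle, fell by 0.26 in Pkd2-/- cells (adjusted p = 0.000626). In Pkd1-/- cells Acaa2 was at -0.16 (adjusted p = 0.0312) and Hadh, the dehydrogenase before it, at -0.15 (adjusted p = 0.0332), calls lost when any of 4 libraries for Acaa2 and of 6 for Hadh was left out.

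Hadha and Hadhb, whose shared start region is printed above, moved alike in one line and apart in the other. Hadha was at 5389 to 5750 in Wt, 3980 to 4285 in Pkd1-/- and 4502 to 4650 in Pkd2-/- libraries, and fell by 0.43 (adjusted p = 1.64e-07) and 0.27 (adjusted p = 2.22e-05) on the log2 scale. Hadhb was at 860 to 955, 595 to 688 and 856 to 943, and fell by 0.47 in Pkd1-/- cells (adjusted p = 1.63e-05), whereas its Pkd2-/- value was 0.00 with a 95% interval from -0.13 to 0.14. The Pkd1-/- values stand beside a median of -0.34 over the 98 genes averaging 10 or more within 5 Mb of either gene, so that the members differed from their neighbours by -0.10 and -0.13. In Pkd2-/- cells those neighbours were at -0.01 and -0.03.

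Of the peroxisomal pair, Acaa1a, a thiolase, was at 1467, 1851, 1622 and 1452 in Wt, 1490, 1567, 1367 and 1466 in Pkd1-/- and 1488, 1375, 1473 and 1264 in Pkd2-/- libraries, and the groups overlapped. Its value in Pkd2-/- cells was -0.19 ± 0.07 (adjusted p = 0.0516), and its near-identical paralog Acaa1b was at 13 to 38 in every library, with reads that fit both genes leaving each uncertain. Ehhadh, the bifunctional enzyme, was at 0 to 2.

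The coactivators of oxidative genes moved apart in Pkd2-/- cells, and in Pkd1-/- cells only Ppargc1a passed. Ppargc1a was at 902, 716, 795 and 971 in Wt, 624, 653, 670 and 666 in Pkd1-/- and 542, 580, 501 and 643 in Pkd2-/- libraries. It fell by 0.36 (adjusted p = 0.00444) and 0.57 (adjusted p = 3.36e-05) on the log2 scale. Its neighbours on chromosome 5 were at -0.42 in Pkd1-/- cells. Ppargc1b was at 37, 36, 23 and 22 in Wt, 42, 45, 32 and 31 in Pkd1-/- and 74, 64, 74 and 63 in Pkd2-/- libraries. Only the Pkd2-/- libraries were above all Wt libraries, by 1.23 ± 0.21 (adjusted p = 9.71e-05), at a level per kilobase of 7.39 in Wt and 17.2 in Pkd2-/- cells against 128 and 85.9 for Ppargc1a.

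Summed per kilobase, the 12 synthesis genes were at 13905 ± 365 in Wt, 16608 ± 391 in Pkd1-/- and 19147 ± 821 in Pkd2-/- cells, and the 14 oxidation enzymes at 10902 ± 472, 10469 ± 215 and 9459 ± 269. Library by library, the ratio of these sums ran from 1.20 to 1.38 in Wt, 1.53 to 1.65 in Pkd1-/- and 1.84 to 2.14 in Pkd2-/- cells, without overlap. Scd2 alone was at 4394 of the Wt synthesis sum, and without it the ratio ran from 0.827 to 0.941, 0.930 to 0.988 and 1.20 to 1.36, with Wt and Pkd1-/- overlapping. Fads1 and Fads2, on chromosome 19 like Scd2, stayed in that ratio. Per kilobase they were at 2642 and 1508 in Wt, 3209 and 1732 in Pkd1-/- and 4085 and 2913 in Pkd2-/- cells. Scd2 was at 6551 in Pkd1-/- and 6934 in Pkd2-/- cells. On this scale Scd2, Fads1 and Fads2 held the largest rises of the synthesis genes in both mutants. Scd1, also on chromosome 19, went the other way, from 455 in Wt to 248 and 179. On other chromosomes Acly, Acaca, Acacb, Fasn and Elovl7 had higher means in Pkd2-/- than in Wt cells. Elovl1, Elovl5 and Elovl6 had lower means. The rise of the ratio thus does not stand for the synthesis genes as a class. A ratio without Fads1 and Fads2 was not computed. The sums were not corrected for the shift of chromosome 19 given below. They give the most weight to the most abundant genes and are a description.

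The members were not spread evenly over the genome. Chromosome 19 holds 8 of the 44 (Cpt1a, Fads1, Fads2, Ffar4, Scd1, Scd2, Gpam and Acsl5), and in the mutants much of it was shifted. The median log2 fold change of its 482 genes averaging 10 or more was 0.18 in Pkd1-/- and 0.28 in Pkd2-/- cells. In Pkd2-/- cells the median was above 0 in each of 6 bins of 10 Mb along it, from 0.19 to 0.42. In Pkd1-/- cells the bins ran from 0.01 to 0.23, and the bin from 30 to 40 Mb, which holds Ffar4, was at 0.01 with 50% of its genes higher. Relative to the neighbours within 5 Mb, the Pkd2-/- rises became 0.39 for Scd2, 0.36 for Fads1, 0.69 for Fads2, 0.26 for Acsl5 and 0.27 for Gpam, and the falls of Scd1 and Ffar4 became -1.63 and -2.34. When every chromosome of every library was centred on its own median, a choice made after seeing the data, those 5 rises and 2 falls still passed, and Cpt1a was lower by -0.40 (adjusted p = 1.29e-06) in Pkd2-/- cells. In Pkd1-/- cells the rises of Scd2 and Cpt1a still passed, whereas those of Fads1 (adjusted p = 0.0684) and Fads2 (adjusted p = 0.759) did not, and Acsl5 turned to -0.14 (adjusted p = 0.0349). On chromosome 5, which carries 6 members, the median was -0.18 in Pkd1-/- cells, with bins of 10 Mb between -0.41 and 0.23. Ppargc1a there had neighbours at -0.42 beside its own -0.36 in that line, and its centred value did not pass (adjusted p = 0.109). The number of chromosome copies in these lines was not measured in this table, and its part in the values was not tested.

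**Figure D5:**
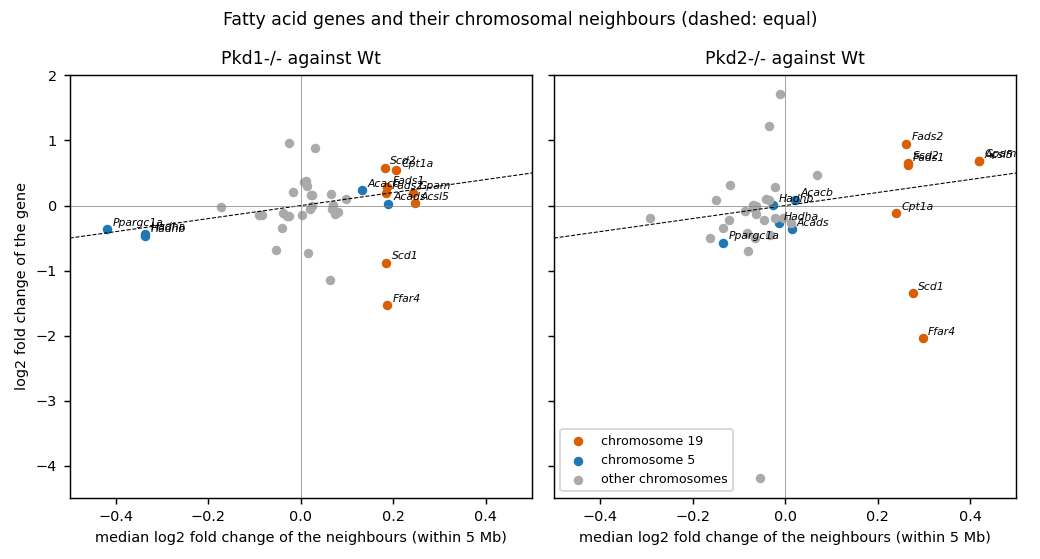
Log2 fold change of each member averaging 10 or more (vertical axis) against the median log2 fold change of genes within 5 Mb (horizontal axis), Pkd1-/- left and Pkd2-/- right, with chromosome 19 in orange, chromosome 5 in blue and others in grey. The dashed line marks equality. The orange points lie to the right of 0 in both panels, and Hadha and Hadhb sit close to the line at a neighbour median of -0.34 in Pkd1-/- cells.

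Other genes of these pathways were read from lists of regulators and enzymes that hold no member. Over all such lists, 161 of 191 genes were tested, and 60 of them (37.3%) passed in Pkd1-/- and 94 (58.4%) in Pkd2-/- cells. Genes averaging 100 or more, as 137 of the 161 did, passed at 37.0% and 59.3%, so the shares called were near that background, and the counts by list that follow are a description. Among 12 tested regulators of lipogenesis, 5 passed in Pkd1-/- cells, 3 higher and 2 lower, and 4 in Pkd2-/- cells, 3 higher and 1 lower. Srebf1, the transcription factor that drives lipogenic genes, was at 4591 to 5162 in Wt, 6064 to 6667 in Pkd1-/- and 6204 to 6667 in Pkd2-/- libraries, above Wt by 0.38 ± 0.05 (adjusted p = 4.61e-06) and 0.39 ± 0.05 (adjusted p = 1.94e-06). Insig1, which holds SREBP proteins in the endoplasmic reticulum, was lower in one line and higher in the other, with -0.49 (adjusted p = 2.36e-06) and 0.20 (adjusted p = 0.00693). Its bin of chromosome 5, from 20 to 30 Mb, had a median of -0.36 in Pkd1-/- cells, with 16.4% of genes higher. The part of that shift in the Insig1 value was not tested. Srebf1 and Insig1 were named after their values were seen. The 22 genes of sterol synthesis had 7 past the test in Pkd1-/- cells, 5 higher, and 14 in Pkd2-/- cells, 9 lower, none of them by the fold threshold.

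Of 9 tested PPAR receptors and partners 2 and 6 passed, and Pparg, the receptor of fat cells, was at 0 in all libraries. Among the 8 tested genes known as PPAR targets, 3 (37.5%) passed both thresholds in Pkd2-/- cells, 1 higher and 2 lower. The background past both was 9.62% of all genes tested and 5.68% of genes averaging 100 or more. Angptl4, a secreted inhibitor of lipoprotein lipase, was at 88, 152, 106 and 106 in Wt, 122, 132, 124 and 112 in Pkd1-/- and 3, 1, 7 and 3 in Pkd2-/- libraries. Wt and Pkd1-/- overlapped and the Pkd2-/- values were in single digits, lower by -4.80 ± 0.30 (adjusted p = 2.63e-10). Pdk4, a kinase that limits pyruvate oxidation, fell by 1.22 in Pkd2-/- cells (adjusted p = 0.00245) at 5 to 26 normalized counts. Vldlr, a lipoprotein receptor on chromosome 19, rose by 1.19 ± 0.05 in Pkd2-/- (adjusted p = 2.28e-12) and was lower by -0.35 in Pkd1-/- cells (adjusted p = 5.79e-05). In Pkd1-/- cells the hormone gene Fgf21 rose by 1.67, from 2 to 9 in Wt to 16 to 21 normalized counts (adjusted p = 0.00209).

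Of 9 genes that supply citrate, acetyl-CoA and NADPH, 3 passed in Pkd1-/- and 6 in Pkd2-/- cells, and of 7 genes of mitochondrial fatty acid synthesis 2 in each line. Of 12 further elongation and desaturation genes, 5 passed in Pkd1-/- cells and 6 in Pkd2-/- cells. Elovl4, an elongase of very long chains, fell by 2.65 on the log2 scale in Pkd2-/- cells (adjusted p = 1.44e-07), from 35 to 45 in Wt to 4 to 7. Hacd1, a dehydratase of elongation, rose by 1.79 in Pkd1-/- cells (adjusted p = 0.00556) at 18 normalized counts or less, Scd4 by 1.30 (adjusted p = 0.018), and Scd3 by 1.01 in Pkd2-/- cells (adjusted p = 0.00183).

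Of 14 further genes of glycerolipid synthesis 5 and 6 passed. Gpat3, which starts glycerolipid synthesis at the endoplasmic reticulum, fell by 1.13 in Pkd1-/- cells (adjusted p = 1.87e-08), from 483 to 540 in Wt to 200 to 268, and Mogat2 rose by 1.95 (adjusted p = 0.00479) at 15 normalized counts or less. Of 11 further droplet genes 4 and 8 passed, 6 of the 8 lower. Bscl2, which encodes seipin and lies on chromosome 19, rose by 1.03 ± 0.08 in Pkd1-/- cells (adjusted p = 1.79e-08), with 0.87 ± 0.08 in Pkd2-/- cells (adjusted p = 7.95e-08). Plin5 and Cideb fell by 1.73 (adjusted p = 0.0113) and 2.14 (adjusted p = 0.00164) in Pkd2-/- cells from at most 14 normalized counts.

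Among further oxidation genes that passed, more were lower than higher. Of 23 further mitochondrial genes 14 (60.9%, beside 59.3% of genes averaging 100 or more) passed in Pkd2-/- cells, 2 higher and 12 lower, with a median of -0.19 beside -0.01 for all genes tested, and in Pkd1-/- cells 10 (43.5%, beside 37.0%) passed, 3 higher and 7 lower, with a median of -0.04. Of 18 further peroxisomal genes 12 passed in Pkd2-/- cells, 9 of them lower, and 10 in Pkd1-/- cells, 6 of them lower. In that list Amacr, the racemase for branched chains, rose by 1.25 ± 0.12 (adjusted p = 1.24e-07) and 1.48 ± 0.12 (adjusted p = 5.96e-09), and Acox2, an oxidase of branched chains, rose by 2.04 in Pkd1-/- cells (adjusted p = 0.000345), from 2 to 8 in Wt to 14 to 25 normalized counts. Of 8 tested genes of AMP-activated kinase, an energy sensor that inhibits acetyl-CoA carboxylase, and its upstream kinase, 2 and 5 passed. Prkaa2, which like Prkaa1 encodes a catalytic subunit of AMP-activated kinase, fell by 2.74 on the log2 scale in Pkd1-/- cells (SE 0.10, adjusted p = 4.59e-13). Prkaa2 went from 417 to 570 in Wt to 67 to 76, and was at 463 to 582 in Pkd2-/- libraries.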

How the data were processed

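RNA of 12 libraries, 4 for each genotype, was analysed. Per the study's methods, the authors used Trim Galore, then HISAT2 with the GRCm38 genome, then htseq-count for the reads of each Ensembl gene, and scaled every library by its DESeq2 size factor. Each deposited score is such a scaled count, rounded to a whole number by the authors, and not a read count, so whole reads and models of read counts were not used. Strand setting and annotation release of the counting are not given in the sources used here, so reads of overlapping and antisense genes cannot be told apart. All 12 sample columns were used, leaving 0 unused. Symbols and coordinates came from GENCODE M21, which held 47223 of the 47642 identifiers.

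Genes with a mean of at least 1 were tested on log2(value + 1) with limma 3.58.1 in R 4.3.3 (trended variance, all 12 libraries, Benjamini-Hochberg adjustment). A fold change on this scale understates the change of low genes. A gene was called at an adjusted p under 0.05, and the fold threshold was a log2 fold change of 1. Intervals are at 95%. With 4 against 4 libraries an exact permutation test cannot go below 0.0286, and none is used for a call. Neighbours are genes with a mean of at least 10 within 5 Mb. Levels per kilobase use the bases of all annotated exons of a gene. The fits were run on simulated data with known changes in few genes, a fixed spread and no shifts of whole chromosomes. That run cannot show how the fits behave under such shifts.

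Members and lists were chosen with earlier results of these data known. Values in every library are given for members past both thresholds in any comparison. They are also given for the member of each role with the smallest adjusted p against Wt. Pathway lists are illustrated by some of the genes past both thresholds against Wt, with Srebf1 and Insig1 as exceptions. Values in every library of other members were added after they were seen. Alternatives were other pseudocounts (0.5 and 5), no filter or a minimum mean of 10, upper quartile scaling, no variance trend, only the genotypes compared, a replicate block, each library left out and, chosen after seeing the data, chromosome centring. The limit of 3 counts behind a 0 covers counting error only. Python 3.11.15 and matplotlib 3.10.9 made the summaries and plots.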

Additional observations from a re-analysis of the deposited data

Results flagged for a closer look

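In 4 of 120 groups of 4 libraries (40 members in 3 genotypes), a single library lay farther from the others than Dixon's limit at 95% allows. Chance alone flags about 1 in 20 such groups. Acacb was at 33 normalized counts in Pkd1-/- replicate 4, with the other 3 at 46 to 47. Fabp5 was at 54 in the same replicate, with the others at 74 to 77. Fads2 was at 9110 in Pkd2-/- replicate 3, with the others at 9730 to 9826. Gpam was at 757 in Wt replicate 3, with the others at 633 to 652.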

How the results depend on the processing

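The counts of members and of list genes past a threshold stayed within 1.5 times their main value under each of 8 alternatives, with each of 12 libraries left out and under chromosome centring. With a library left out, 17 to 24 members passed in Pkd1-/- and 26 to 29 in Pkd2-/- cells against Wt, and 27 to 32 between the mutants. Members past the fold threshold numbered 2 to 3, 5 to 5 and 3 to 4. In Pkd1-/- cells Dgat2 lay close to that fold, and Cd36 gained a call without Pkd1-/- replicate 3. Between the mutants Cd36 lost its adjusted p. Under chromosome centring, Acsl5 in Pkd1-/- cells turned from 0.04 to -0.14, the only reversal. No variance trend gave 17, 26 and 29 members. The replicate numbers were not treated as a pairing in the main fit. Of 12 pairs with the same number, 2 had correlated deviations above 0.1 (from -0.07 to 0.20, with -0.20 to 0.11 between different numbers). Both were of replicate 4, at 0.20 for Wt with Pkd2-/- and 0.17 for Pkd1-/- with Pkd2-/-. Whether the libraries of replicate 4 share a source of variation was not tested. A replicate block gave 23, 28 and 32 members past the adjusted p and 2, 5 and 4 past the fold threshold. Small changes such as those of Fasn, Hadh, Acaa2 and Pnpla2 in Pkd1-/- cells lost their call under several alternatives, and the cause was not tested. Depth limits Cd36, Fabp3, Mgll and Ehhadh, and 1 clone of each mutant limits all comparisons.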
